A study of Mus musculus with 12 samples.

Results

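The 10 S100 genes described here are S100a1, S100a4, S100a6, S100a8, S100a9, S100a10, S100a11, S100a13, S100a14 and S100a16, and they were picked by gene symbol out of 78317 genes in the deposited table. Each symbol had a single gene ID. They were chosen with earlier results of these data in view, among them the fall of S100a4 with TGFβ1, so S100a4 is described in the TGFβ1 comparisons without a test. The cells were 4T1, a line from a mouse mammary tumour described in the labels as triple negative, in 4 groups of 3 biological replicates: PBRM1 KO cells with TGFβ1, PBRM1 KO cells left untreated, control cells with TGFβ1 and control cells left untreated. TGFβ1 was given at 5 ng/ml for 4 days. The titles of the untreated libraries say 0h. These titles do not say whether untreated cells were kept for the same 4 days, so from them TGFβ1 and time in culture cannot be told apart. All groups shared the same medium and harvest by trypsin. Pbrm1 encodes the bromodomain subunit of the PBAF chromatin remodelling complex, and whether the KO cells were 1 clone or a pool is not given in the sources used here.

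S100 proteins are small, mostly dimeric proteins with a pair of EF-hand loops. In most of them calcium binding opens a hydrophobic groove that takes up a partner such as an annexin, a myosin heavy chain or a receptor. S100A10 differs in that its loops no longer bind calcium, and it sits with annexin A2 at the plasma membrane. Several members, S100A4 above all, are used as markers of motile and mesenchymal cells, and TGFβ1 is a cytokine that moves many epithelial cells towards such a state.

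Most of these genes lie in a cluster on chromosome 3. RefSeq promoter windows (GRCm38.p6, not the mm39 build of the submitters, so the positions apply to RefSeq only) were at hand for 8 of the 10 genes. S100a10 and S100a14 had none. The 250 bases before the start are shown for 3 of them: S100a4, which differed most with TGFβ1, S100a6, the most abundant, and S100a11, an abundant gene that did not pass the test. Capitals mark matches to motifs that were searched on both strands. The motif of the SMAD proteins, which carry the TGFβ1 signal to DNA, was CAGAC. The motif of the TATA box, where the basal transcription machinery binds, was TATAAA. The motif of AP-1, a dimer of JUN and FOS proteins, was TGANTCA.
S100a4, chr3:90603520-90603769, plus strand: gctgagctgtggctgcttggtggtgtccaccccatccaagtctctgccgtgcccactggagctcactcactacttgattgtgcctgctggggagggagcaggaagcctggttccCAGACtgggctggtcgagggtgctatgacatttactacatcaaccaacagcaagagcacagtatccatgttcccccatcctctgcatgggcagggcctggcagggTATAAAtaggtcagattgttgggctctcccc
S100a6, chr3:90612644-90612893, plus strand: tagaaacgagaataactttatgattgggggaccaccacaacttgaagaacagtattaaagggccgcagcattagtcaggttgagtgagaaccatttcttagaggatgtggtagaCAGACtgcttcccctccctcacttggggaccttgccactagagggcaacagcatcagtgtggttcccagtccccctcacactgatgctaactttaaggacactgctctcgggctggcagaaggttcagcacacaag
S100a11, chr3:93520246-93520495, plus strand: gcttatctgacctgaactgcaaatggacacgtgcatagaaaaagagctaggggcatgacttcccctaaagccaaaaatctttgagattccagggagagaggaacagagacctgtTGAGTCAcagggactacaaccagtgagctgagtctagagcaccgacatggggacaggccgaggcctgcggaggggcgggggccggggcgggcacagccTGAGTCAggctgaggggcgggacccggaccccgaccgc
S100a4 held the SMAD motif at -136 to -132 and the TATA box at -31 to -26, counted from the start. S100a6 held the SMAD motif at -136 to -132 as well. S100a11 held no SMAD motif and held the AP-1 motif at -136 to -130 and at -38 to -32. No matches overlapped each other in these 3 windows. Among the genes not shown, S100a8, too low to be tested, held 2 SMAD motifs and 1 TATA box. S100a16, which did not pass the main test, held 2 SMAD motifs and 1 AP-1 motif, and S100a9 held none. The SMAD motif was thus not limited to genes that were lower with TGFβ1. Over 32851 RefSeq windows of this length, 42.2% held the SMAD motif, 12.4% the TATA box and 6.75% the AP-1 motif. The motif of the TEAD factors, GGAATG, was found in 12.6% of windows and in none of the windows of the 8 genes. The windows of S100a1 and S100a13 lie on opposite strands and overlap, since the 2 genes start next to each other and run apart, and they held none of these motifs.

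Each transcript was counted once from its 3′ end through molecular identifiers, so a level in CPM, the count scaled to a common library total, does not scale with gene length. Library totals were 9265693 to 11250850 counts. All 5 tested TGFβ-SMAD target genes were higher with TGFβ1 in each genotype by edgeR's quasi-likelihood test at adjusted p below 0.05. Their summed level was 900 CPM in replicate 3 of the PBRM1 KO TGFβ1 libraries and 1733 and 1948 CPM in the other 2, against 385 to 463 CPM in untreated PBRM1 KO libraries. It was 897 CPM in replicate 3 of the control TGFβ1 libraries and 1562 and 1857 CPM in the other 2, against 432 to 497 CPM in untreated control libraries. The replicate 3 TGFβ1 libraries therefore stood apart, and the values that changed most without them are given both ways. Pbrm1 itself read 222 to 274 CPM and 207 to 245 CPM in KO cells with and without TGFβ1, against 276 to 292 CPM and 258 to 328 CPM in the control cells, a difference that did not pass the test; a 3′ count does not check the edit. The epithelial keratins Krt8 and Krt18 read 572 to 916 CPM and 711 to 1008 CPM over the 12 libraries, while the basal keratin Krt5 stayed at or below 0.142 CPM. With TGFβ1, 3 of 8 tested epithelial markers (Krt8, Krt19 and Cdh1) fell in PBRM1 KO cells and 4 of 8 (with Krt18) fell in control cells, and none rose. Of all tested genes 3.72% and 2.91% were lower in PBRM1 KO and control cells. The median log2 fold change of the 8 markers was -0.023 in PBRM1 KO cells and -0.27 in control cells. Cdh1, which encodes E-cadherin, differed by -0.59 ± 0.12 in PBRM1 KO cells (edgeR adjusted p = 0.00738) and by -0.75 ± 0.12 in control cells (edgeR adjusted p = 0.00222), and Krt19 by -0.80 ± 0.15 and -1.05 ± 0.15. Krt14 differed by 2.23 ± 0.70 in PBRM1 KO cells (edgeR adjusted p = 0.0568) and by 1.41 ± 0.63 in control cells (edgeR adjusted p = 0.188), and Krt7 by 0.63 ± 0.21 and 0.29 ± 0.21. These markers moved in the same comparisons as the S100 genes below, and their part in those results was not tested.

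The S100 genes together took 0.767% ± 0.111 of counts in PBRM1 KO cells with TGFβ1 and 1.11% ± 0.0659 in untreated PBRM1 KO cells, and 0.775% ± 0.0962 in control cells with TGFβ1 and 1.10% ± 0.0910 in untreated control cells (SD, n = 3 each). S100a6 alone made up 67.1% to 75.4% of these counts and ranked between 2 and 12 among all genes of a library. The order of mean levels was the same in every group, from S100a6 through S100a10, S100a11, S100a4, S100a13, S100a1, S100a16, S100a14 and S100a8 down to S100a9. Neighbours in that order overlapped between S100a14 and S100a8 in every group, between S100a4 and S100a13 in control cells with TGFβ1, between S100a16 and S100a14 in PBRM1 KO cells with TGFβ1, and between S100a8 and S100a9 in untreated PBRM1 KO cells. All other neighbours were separated within each group.

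**Figure D1:**
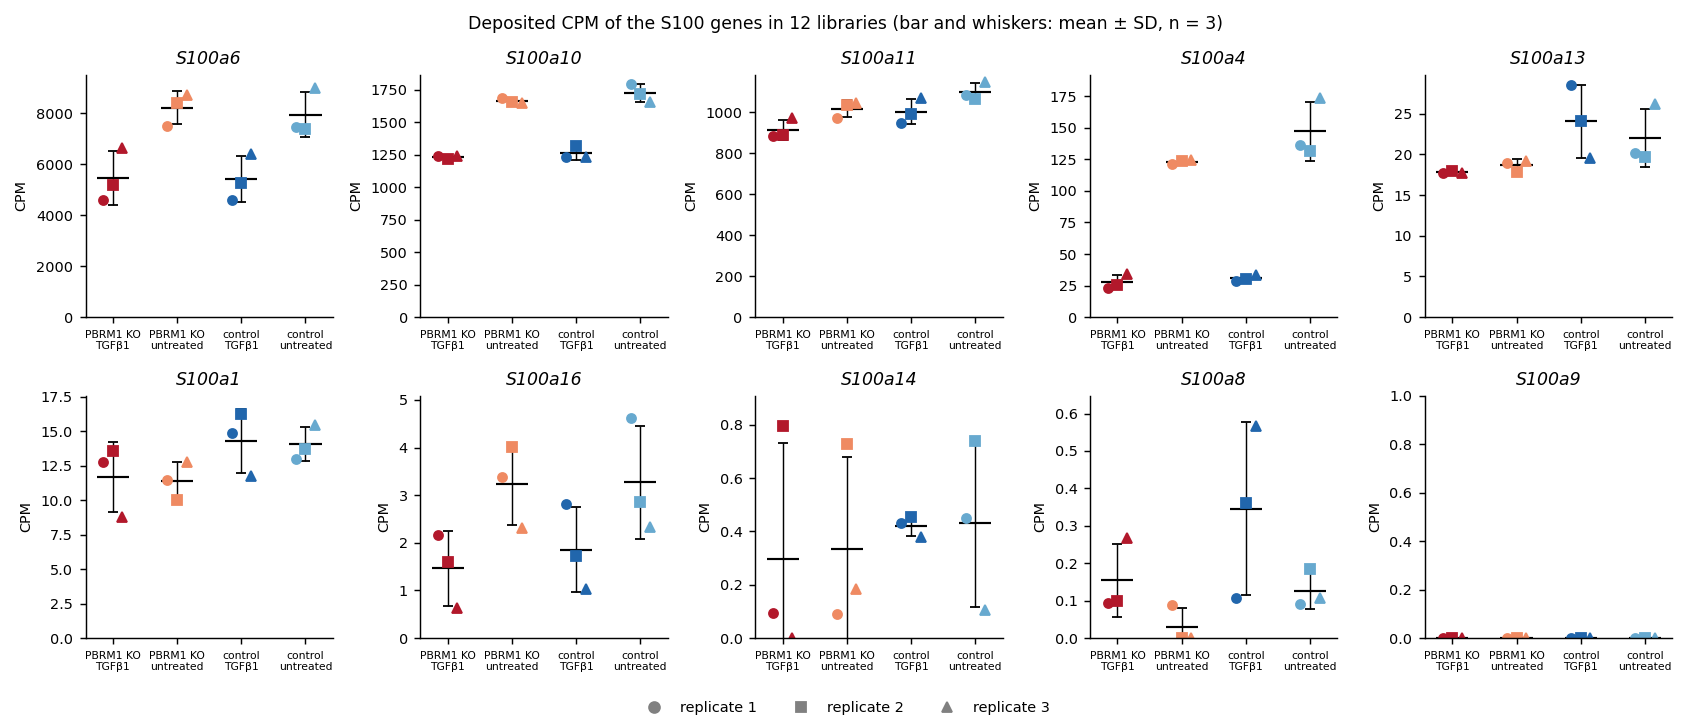
Deposited CPM of the 10 genes (vertical axes, each from 0) in the 4 groups, with 1 point per library, point shape giving the replicate number and bars and whiskers the mean ± SD of 3 libraries (whiskers are cut at 0). TGFβ1 libraries lie below untreated libraries of the same genotype for S100a4, S100a6 and S100a10, and S100a9 is at 0 throughout.

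With TGFβ1, S100a4, S100a6 and S100a10 were lower in both genotypes and none of the 7 genes that could be tested was higher. S100a8, S100a9 and S100a14 had too few counts to pass edgeR's filter, so 7 of the 10 genes entered the fit over 14012 genes. S100a4 aside, 2 of the other 6, S100a6 and S100a10, were lower at adjusted p below 0.05 in PBRM1 KO cells, where 11.4% of all tested genes passed, 3.72% lower and 7.65% higher. The same 2 of 6 were lower in control cells, where 8.81% of all tested genes passed, 2.91% lower and 5.89% higher. The median log2 fold change of the 7, S100a4 included, was -0.45 in PBRM1 KO cells and -0.46 in control cells, with medians over all genes of at most 0.0035 in size. These counts describe genes chosen with results in view, and nothing is read from them. With the replicate number as a block, 2780 genes in place of 1593 passed in PBRM1 KO cells, and S100a16 was the 1 member that joined them.

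S100a4, also called metastasin or fibroblast-specific protein, binds non-muscle myosin IIA and is used as a marker of motile cells. S100a4 read 23.3, 25.7 and 34.2 CPM in PBRM1 KO cells with TGFβ1, against 121, 124 and 125 CPM in untreated PBRM1 KO cells. In control cells S100a4 read 28.4, 29.8 and 33.7 CPM with TGFβ1, against 136, 132 and 174 CPM without it. Every TGFβ1 library was thus far below every untreated library, with no overlap. The log2 fold change was -2.16 ± 0.15 (SE) in PBRM1 KO cells and -2.27 ± 0.15 (SE) in control cells, given here without a test. Without both replicate 3 TGFβ1 libraries S100a4 differed by -2.36 ± 0.13 in PBRM1 KO cells and by -2.35 ± 0.13 in control cells. Fibroblast markers, 9 genes, summed to 30.5 to 65.8 CPM with TGFβ1 and 29.2 to 39.8 CPM without it in PBRM1 KO cells, and to 34.5 to 110 CPM with and 36.2 to 50.7 CPM without it in control cells, with overlapping ranges. Of the 9, 6 could be tested in each genotype, and Lum, Thy1 and Fap could not. Pdgfrb alone passed, in PBRM1 KO cells, where 11.4% of all tested genes passed. There Pdgfrb read 8.40, 6.17 and 1.34 CPM with TGFβ1 against 0.356, 0.0910 and 0 CPM without it (log2 5.00 ± 0.95, edgeR adjusted p = 0.00529). In control cells Pdgfrb read 2.59, 3.35 and 0.662 CPM with TGFβ1 against 0.181, 0.921 and 0.106 CPM without it and did not pass (edgeR adjusted p = 0.120). The part of these markers in the result was not tested. In bulk RNA, fewer cells expressing a gene and less RNA per cell cannot be told apart.

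S100a6, or calcyclin, binds the ubiquitin ligase adaptor CacyBP and annexins and is linked to proliferation. It read 4576, 5184 and 6624 CPM in PBRM1 KO cells with TGFβ1, against 7501, 8422 and 8728 CPM in untreated PBRM1 KO cells. In control cells S100a6 read 4594, 5247 and 6392 CPM with TGFβ1, against 7471, 7386 and 8973 CPM without it. The groups did not overlap in either genotype, and replicate 3 was the highest of the TGFβ1 libraries in both. The log2 fold change was -0.60 ± 0.15 (SE) in PBRM1 KO cells and -0.56 ± 0.15 (SE) in control cells, with edgeR adjusted p of 0.0213 and 0.0358. Without both replicate 3 TGFβ1 libraries S100a6 differed by -0.77 ± 0.11 in PBRM1 KO cells (edgeR adjusted p = 6.55e-05) and by -0.70 ± 0.11 in control cells (edgeR adjusted p = 0.000192). Replicate 3 had the smallest fall of S100a6 in each genotype, so leaving it out enlarged the difference. The lower p-values of that fit are therefore not read as support. The call on S100a6 was less stable than that on S100a10. It was lost in PBRM1 KO cells without PBRM1 KO TGFβ1 replicate 1 or 2 (edgeR adjusted p = 0.102 and 0.101) and without untreated PBRM1 KO replicate 2 or 3 (0.0716 and 0.0771). In control cells it was lost without control TGFβ1 replicate 1 or 2 (edgeR adjusted p = 0.142 and 0.141), without untreated control replicate 1, 2 or 3 (0.0580, 0.0769 and 0.147) and without untreated PBRM1 KO replicate 2 (0.0523). These fits had no replicate block. With the replicate number as a block and all libraries, S100a6 differed by -0.62 ± 0.07 in PBRM1 KO cells (edgeR adjusted p = 4.71e-05) and by -0.56 ± 0.07 in control cells (edgeR adjusted p = 0.000105).

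S100a10, the annexin A2 partner that helps anchor plasminogen at the cell surface, had the smallest SE of the 7 tested genes in the TGFβ1 comparisons. It read 1236, 1213 and 1238 CPM in PBRM1 KO cells with TGFβ1, against 1688, 1656 and 1644 CPM in untreated PBRM1 KO cells. In control cells S100a10 read 1229, 1316 and 1232 CPM with TGFβ1, against 1796, 1720 and 1658 CPM without it. The groups did not overlap in either genotype, and here replicate 3 read like the other replicates. The log2 fold change was -0.45 ± 0.06 (SE) in PBRM1 KO cells and -0.46 ± 0.06 (SE) in control cells, with edgeR adjusted p of 0.000657 and 0.000623. The call on S100a10 held in all 22 alternative fits in each genotype, at -0.47 ± 0.07 in PBRM1 KO cells and -0.45 ± 0.07 in control cells without both replicate 3 TGFβ1 libraries. Its partner Anxa2 differed by -0.17 ± 0.08 in PBRM1 KO cells (edgeR adjusted p = 0.191) and by -0.25 ± 0.08 in control cells (edgeR adjusted p = 0.0680), and did not pass.

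S100a11, or calgizzarin, binds annexin A1 and acts in keratinocyte growth control and membrane repair. It read 886, 889 and 972 CPM in PBRM1 KO cells with TGFβ1, against 972, 1037 and 1047 CPM in untreated PBRM1 KO cells. In control cells S100a11 read 948, 994 and 1069 CPM with TGFβ1, against 1083, 1065 and 1151 CPM without it. The highest TGFβ1 library met or passed the lowest untreated library in each genotype. The log2 fold change was -0.16 ± 0.08 (SE) in PBRM1 KO cells (edgeR adjusted p = 0.196; 95% interval -0.33 to 0.0041) and -0.13 ± 0.08 (SE) in control cells (edgeR adjusted p = 0.313). Without both replicate 3 TGFβ1 libraries S100a11 passed in PBRM1 KO cells, at -0.22 (edgeR adjusted p = 0.0413). Replicate 3 had the smallest fall of S100a11 in each genotype, so nothing is read from that pass. The counts of S100a11 were fractional in each of the 12 libraries, and what made them so is not given in the sources used here. S100a4, S100a6 and S100a10 had fractional counts in 6, 4 and 4 libraries.

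S100a16, an EF-hand protein found in many epithelia, was low. It read 2.17, 1.59 and 0.626 CPM in PBRM1 KO cells with TGFβ1, against 3.378, 4.00 and 2.31 CPM in untreated PBRM1 KO cells. In control cells S100a16 read 2.81, 1.72 and 1.04 CPM with TGFβ1, against 4.61, 2.86 and 2.34 CPM without it. Groups were apart in PBRM1 KO cells and overlapped in control cells, and the libraries held only 7 to 51 counts. The log2 fold change was -1.16 ± 0.41 (SE) in PBRM1 KO cells, with an edgeR adjusted p of 0.0871, and 0.00633 with the replicate number as a block. In control cells S100a16 differed by -0.85 ± 0.40 (SE; edgeR adjusted p = 0.213). Without both replicate 3 TGFβ1 libraries S100a16 differed by -0.80 ± 0.34 in PBRM1 KO cells (edgeR adjusted p = 0.0968) and by -0.58 ± 0.33 in control cells (edgeR adjusted p = 0.233).

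S100a1, known from heart muscle where it acts on calcium handling, and S100a13, which takes part in the release of FGF1 and interleukin 1α, sit next to each other and did not pass. S100a1 read 12.7, 13.5 and 8.76 CPM in PBRM1 KO cells with TGFβ1 and 11.5, 10.0 and 12.8 CPM in untreated ones, against 14.9, 16.3 and 11.7 CPM and 13.02, 13.7 and 15.4 CPM in control cells with and without it. S100a13 read 17.7, 18.0 and 17.7 CPM in PBRM1 KO cells with TGFβ1 and 18.9, 17.8 and 19.2 CPM in untreated ones, against 28.5, 24.2 and 19.6 CPM and 20.2, 19.7 and 26.2 CPM in control cells with and without it. Both overlapped between treatments. S100a1 differed by 0.02 ± 0.17 (SE) with TGFβ1 in each genotype, with edgeR adjusted p of 0.963 in PBRM1 KO cells and 0.951 in control cells. S100a13 differed by -0.08 ± 0.15 (edgeR adjusted p = 0.777) in PBRM1 KO cells and by 0.13 ± 0.14 (edgeR adjusted p = 0.631) in control cells. Without both replicate 3 TGFβ1 libraries S100a13 differed by 0.25 ± 0.14 in control cells (edgeR adjusted p = 0.213), and S100a1 by 0.18 ± 0.14 in PBRM1 KO cells (edgeR adjusted p = 0.381) and 0.14 ± 0.14 in control cells (edgeR adjusted p = 0.489).

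**Figure D2:**
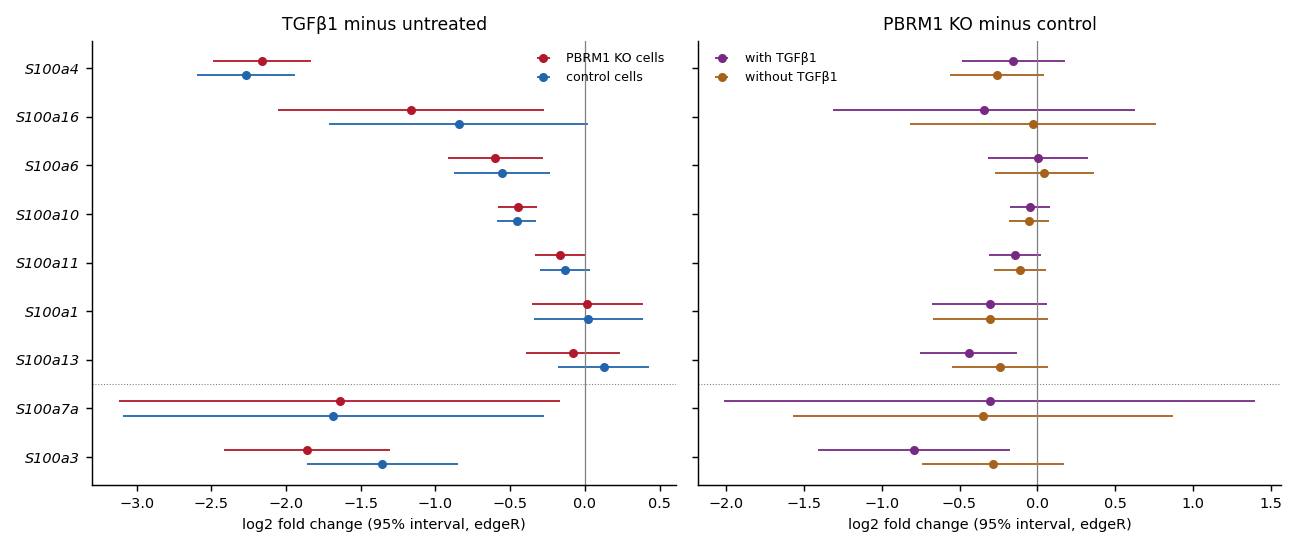
Log2 fold changes from edgeR with 95% intervals (horizontal axes) for the 7 tested genes and, below the dotted line, the 2 other tested S100 genes: left, TGFβ1 minus untreated in PBRM1 KO and control cells; right, PBRM1 KO minus control with and without TGFβ1. On the left the intervals of S100a6 and S100a10 lie below 0 in both genotypes, and on the right those of the 7 genes include 0 except for S100a13 with TGFβ1. S100a4 was chosen with its fall in view, so its intervals on the left are drawn as a description and not read as a test.

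The shift of each TGFβ1 library from its untreated group separated the genes further. For S100a4 it was -2.44, -2.26 and -1.83 log2 units in PBRM1 KO replicates and -2.36, -2.30 and -2.10 in control replicates. For S100a6 it was -0.88, -0.67 and -0.30 in PBRM1 KO replicates and -0.79, -0.61 and -0.29 in control replicates. Replicate 3, the one with the smallest SMAD target level, had the smallest fall of S100a4, S100a6 and S100a11 in both genotypes. S100a10 did not follow this order in control cells, at -0.49, -0.40 and -0.47, and ranged narrowly in PBRM1 KO cells, at -0.46, -0.46 and -0.42. S100a16 ran the other way, with its largest fall in replicate 3, at -2.03 in PBRM1 KO cells and -1.43 in control cells. S100a1 was lowest in replicate 3 as well, at -0.36 in PBRM1 KO cells and -0.24 in control cells. The part of the replicate 3 libraries in these differences was not tested.

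**Figure D3:**
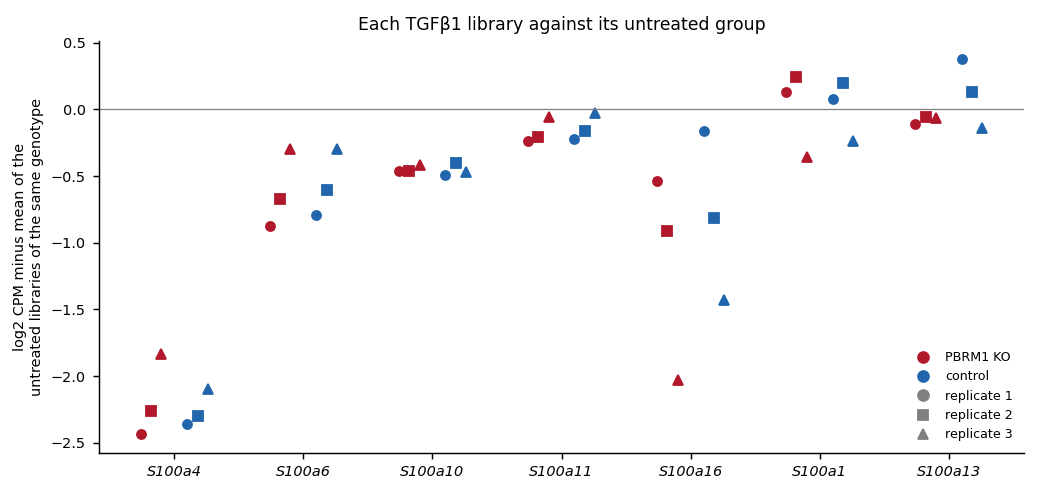
Log2 CPM of each TGFβ1 library minus the mean of the untreated libraries of its genotype (vertical axis) for the 7 tested genes, with colour for genotype and shape for replicate number. S100a4 spans -2.44 to -1.83 and S100a10 spans -0.49 to -0.40, while replicate 3 lies highest for S100a6 and S100a11 and lowest for S100a16 and S100a1.

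S100a8 and S100a9 form calprotectin, a neutrophil protein that signals through TLR4 and RAGE, and S100a14 is an epithelial member. S100a9 had 0 counts in all 12 libraries, which allows a level of up to 0.0236 CPM over 127087078 counts, and that limit covers counting error only. S100a8 had 1, 1 and 3 counts in PBRM1 KO cells with TGFβ1 and 1, 0 and 0 in untreated PBRM1 KO cells, and 1, 4 and 6 in control cells with TGFβ1 against 1, 2 and 1 in untreated control cells. The ratio of summed S100a8 levels, TGFβ1 over untreated, was 5.19 (95% exact interval 0.581 to 246) in PBRM1 KO cells and 2.79 (0.826 to 12) in control cells, so no difference was detectable at this depth. S100a14 had 1, 8 and 0 counts in PBRM1 KO cells with TGFβ1 and 1, 8 and 2 in untreated PBRM1 KO cells, and 4, 5 and 4 in control cells with TGFβ1 against 5, 8 and 1 in untreated control cells. Its ratios were 0.850 (95% exact interval 0.311 to 2.26) in PBRM1 KO cells and 0.941 (0.407 to 2.16) in control cells. The 14 leukocyte and neutrophil markers summed to 9.20 to 10.1 CPM and 7.82 to 10.5 CPM in PBRM1 KO cells with and without TGFβ1, and to 6.51 to 8.09 CPM and 7.08 to 8.05 CPM in control cells with and without it. Most of that sum came from the lysosomal genes Cd68, at 3.62 to 7.83 CPM, and Lyz2, at 1.17 to 2.58 CPM, and neither passed in any comparison; Csf1r reached 1.18 CPM. The defining leukocyte gene Ptprc stayed at or below 0.181 CPM, and Ly6g, Itgam, Mpo and Elane, which define neutrophils and other myeloid cells, each stayed at or below 0.106 CPM.

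PBRM1 loss was tested next, with and without TGFβ1. Of the 7 tested S100 genes 0 passed in either setting, where 0.271% of all tested genes passed with TGFβ1 and 0.278% without it. DESeq2 and limma-voom also called 0, and the number at an unadjusted edgeR p below 0.05 was 1 with TGFβ1 and 0 without it. The replicate number as a block raised the number of genes passing with TGFβ1 to 158, against 38, with 0 S100 genes among them. S100a4 differed by -0.15 ± 0.15 (SE) between PBRM1 KO and control cells with TGFβ1 (edgeR adjusted p = 0.872; -0.27 ± 0.15 and 0.629 without both replicate 3 TGFβ1 libraries) and by -0.26 ± 0.14 without it (edgeR adjusted p = 0.780; 95% interval -0.56 to 0.04). S100a10 differed by -0.05 ± 0.06 in each setting, with a 95% interval of -0.18 to 0.08 without TGFβ1. S100a6 differed by 0.0036 ± 0.15 with TGFβ1 and by 0.05 ± 0.15 without it.

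The 1 gene at an unadjusted p below 0.05 was S100a13, at -0.44 ± 0.14 (SE) in PBRM1 KO against control cells with TGFβ1. It read 17.7 to 18.0 CPM in those PBRM1 KO cells and 19.6 to 28.5 CPM in control cells, without overlap, but its edgeR adjusted p was 0.337 and lay between 0.148 and 0.675 over the alternatives. Without TGFβ1 S100a13 differed by -0.24 ± 0.14. S100a1 differed by -0.31 ± 0.17 with TGFβ1 (edgeR adjusted p = 0.694) and by -0.30 ± 0.17 without it (edgeR adjusted p = 0.809). S100a11 differed by -0.14 ± 0.08 and -0.11 ± 0.08, and S100a16 by -0.34 ± 0.45 and -0.02 ± 0.37, with and without TGFβ1. The ratio of summed S100a8 levels, PBRM1 KO over control, was 0.441 (95% exact interval 0.120 to 1.38) with TGFβ1 and 0.237 (0.00481 to 2.39) without it, and that of S100a14 was 0.672 (0.253 to 1.70) and 0.744 (0.306 to 1.76).

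The difference between the TGFβ1 responses of PBRM1 KO and control cells was tested as an interaction. It passed for 0 of the 7 S100 genes and for 0 of all 14012 genes, or 0%, by edgeR, and 0 S100 genes passed by DESeq2 or limma-voom. Over all genes 247 had an unadjusted p below 0.05, and 0 of them were S100 genes. Evenly spread p-values would put 5% of genes there, and 247 of 14012 is fewer. The test may therefore be conservative, and 0 passing does not show that the responses were alike. The response in PBRM1 KO cells minus that in control cells was 0.11 ± 0.21 log2 units for S100a4 (95% interval -0.34 to 0.56). For S100a6 it was -0.04 ± 0.21 (95% interval -0.49 to 0.41) and for S100a10 0.0081 ± 0.09 (95% interval -0.18 to 0.19). Of these 3 intervals that of S100a10 was the narrowest. For S100a13 the difference was -0.20 with the replicate 3 TGFβ1 libraries and -0.33 ± 0.20 without them, and did not pass either way.

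The table held 8 other S100 genes, of which 2 could be tested. S100a3, which lies beside S100a4, read 1.23, 0.896 and 1.74 CPM in PBRM1 KO cells with TGFβ1, against 5.29, 4.96 and 4.11 CPM in untreated PBRM1 KO cells. In control cells S100a3 read 2.16, 1.85 and 2.84 CPM with TGFβ1, against 5.11, 6.68 and 5.80 CPM without it, so that its groups did not overlap either. It differed by -1.86 ± 0.26 (SE) in PBRM1 KO cells (edgeR adjusted p = 0.000745) and by -1.36 ± 0.23 in control cells (edgeR adjusted p = 0.00374). The libraries held only 9 to 72.5 counts of S100a3, and its counts were fractional in 8 of 12 libraries. Whether its fall was independent of that of S100a4 was not tested. S100a7a read 0.283, 0.299 and 2.86 CPM with TGFβ1 in PBRM1 KO cells, against 3.64, 3.18 and 4.25 CPM without it, and 0.755, 0.362 and 3.17 CPM in control cells with TGFβ1, against 3.42, 5.16 and 5.48 CPM without it. Replicate 3 of S100a7a lay close to the untreated libraries in both genotypes, and its differences of -1.64 ± 0.69 and -1.68 ± 0.65 did not pass (edgeR adjusted p = 0.142 in PBRM1 KO cells and 0.131 in control cells). In a fit without the replicate 3 TGFβ1 libraries, chosen after the data were seen, S100a7a passed, at -3.64 ± 0.43 in PBRM1 KO cells (edgeR adjusted p = 1.77e-05) and -3.09 ± 0.37 in control cells (edgeR adjusted p = 2.21e-05), and S100a3 passed again, at -2.18 ± 0.27 and -1.57 ± 0.23.

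Along chromosome 3, in RefSeq order, 16 tested genes that are not among the 10 lie between them or next to them. Of these, 0 were higher and 1, S100a3, was lower with TGFβ1 in PBRM1 KO cells. In control cells 1, Lce1g, was higher and 1, S100a3, was lower with TGFβ1. These counts are near the shares of 11.4% and 8.81% over all tested genes. Lce1g, a late cornified envelope gene of skin, differed by 1.26 ± 0.43 in PBRM1 KO cells (edgeR adjusted p = 0.0757) and by 1.19 ± 0.33 in control cells (edgeR adjusted p = 0.0387). The nearest tested genes outside the cluster, Chtop on one side and Them4 on the other, did not pass. PBRM1 loss moved 0 of the 16 with or without TGFβ1.

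**Figure D4:**
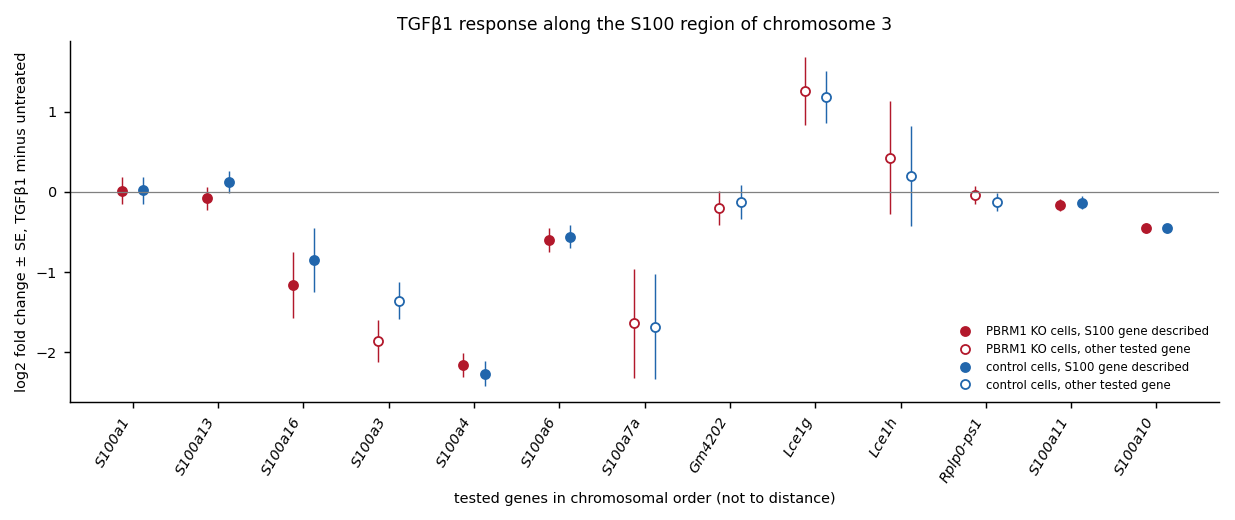
Log2 fold change ± SE with TGFβ1 (vertical axis) of the tested genes from S100a1 to S100a10 on chromosome 3 in their order, not to distance, with filled points for the S100 genes described and open points for other genes. S100a16, S100a3, S100a4, S100a6 and S100a7a lie next to each other below 0, while S100a1 and S100a13 on one side lie near 0.

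Of 14 genes for S100 partners and receptors 12 could be tested, and Ager, which encodes RAGE, and Fgf1 could not. With TGFβ1, 1 rose and 3 fell in PBRM1 KO cells, where 11.4% of all tested genes passed, and 1 rose and 1 fell in control cells, where 8.81% passed. Il1a, whose product is released with S100A13, read 92.4, 97.4 and 81.8 CPM in PBRM1 KO cells with TGFβ1 against 4.80, 6.55 and 9.06 CPM without it, and 374, 465 and 640 CPM in control cells with TGFβ1 against 73.1, 125 and 122 CPM without it. Il1a rose by 3.72 ± 0.28 in PBRM1 KO cells (edgeR adjusted p = 1.42e-05) and by 2.20 ± 0.24 in control cells (edgeR adjusted p = 0.000226). It was lower in PBRM1 KO than in control cells, at -2.46 ± 0.24 with TGFβ1 (edgeR adjusted p = 0.000753) and -3.98 ± 0.28 without it (edgeR adjusted p = 3.16e-05).

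Anxa1, the annexin that S100A11 binds, read 351, 346 and 373 CPM in PBRM1 KO cells with TGFβ1 against 542, 588 and 522 CPM without it, and 436, 392 and 402 CPM in control cells with TGFβ1 against 697, 798 and 810 CPM without it. Anxa1 fell by 0.64 in PBRM1 KO cells and by 0.91 in control cells on the log2 scale (edgeR adjusted p = 0.000731 and 9.08e-05), and was lower in PBRM1 KO than in control cells without TGFβ1, at -0.48 ± 0.09 (edgeR adjusted p = 0.0346). Anxa11, at -0.55 ± 0.17 (edgeR adjusted p = 0.0489), and Ahnak, a scaffold for S100A10 and annexin A2, at -0.45 ± 0.09 (edgeR adjusted p = 0.00906), passed in PBRM1 KO cells; the difference of these responses from those in control cells did not pass the interaction test. The 2 genes for the partners of S100A4 and S100A8, Myh9 and Tlr4, did not pass in either genotype.

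Over the 12 libraries the genes whose log2 CPM ran closest to S100a4 were Lgals3, Car13 and Perp, with Pearson r of 0.984, 0.980 and 0.976. Those closest to S100a6 were Kcnk5, Tinagl1 and Dusp10, at 0.988, 0.980 and 0.974. Among those closest to S100a10 were Car13 and Nts, at 0.982 and 0.974. All of these share the 4 group means and the same libraries, and r is given as a description.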

How the data were processed

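Messenger RNA was counted in 12 libraries at the 3′ end with molecular identifiers, stranded, per the labels' protocols. The submitters' processing notes name build mm39, edgeR 3.38.4, Subread 2.1.1 with featureCounts, STAR 2.7.11, SAMtools 1.22.1 and fastp 0.24.0; their settings are not given in the sources used here. In all, the deposited table held, per the file headers and values, expected counts by the authors (91.8% whole with a tolerance of 0, the rest fractional) and CPM by the authors, equal to count over library total. The 92 spike-in rows held 0 counts.

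Counts were rounded, filtered with filterByExpr and scaled by TMM. Tests used edgeR 4.0.16 in R 4.3.3: quasi-likelihood F test, 1 mean per group over all 12 libraries (8 residual degrees of freedom), Benjamini-Hochberg over 14012 genes, threshold 0.05. SE is the log2 fold change divided by the root of F. The procedure was tested on simulated data. Ratios of genes below the filter have exact binomial 95% intervals for counting error only. Motifs were searched in RefSeq windows.

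The members, gene lists and alternatives were chosen with earlier results of these data known. Named were all members, up to 4 genes per direction of each list by p among those that passed, chromosomal neighbours by the same rule, and the 3 genes most correlated with each member that passed (1 of those of S100a10 is not reported here); Anxa2, Myh9, Tlr4, S100a7a, the outer neighbours and the markers that did not pass were named after their values were seen. Replicate numbers carry no stated link. Correlations of the deviations from group means between libraries of 1 number were 0.201, 0.139 and 0.202 (PBRM1 KO, TGFβ1 against untreated) and 0.396, 0.416 and 0.726 (TGFβ1, PBRM1 KO against control). They were 0.258, -0.0835 and 0.137 (control, TGFβ1 against untreated) and 0.149, 0.0690 and 0.125 (untreated, PBRM1 KO against control). All main fits were without pairing. For TGFβ1 in PBRM1 KO cells and PBRM1 KO with TGFβ1, some results with the replicate number as a block are given beside them. Alternatives were other scalings, filters and tests (DESeq2 1.42.0, limma-voom 3.58.1), fewer libraries, the replicate block and unrounded counts. The labels call the replicates biological and do not describe separate cultures, so p-values measure the spread between these samples.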

Additional observations from a re-analysis of the deposited data

How the results depend on the processing

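S100a10 passed in both TGFβ1 comparisons under all 22 alternatives, and no S100 gene passed for PBRM1 loss or the interaction under any. With 1 library left out at a time, S100a6 passed in 8 of 12 fits for TGFβ1 in PBRM1 KO cells and in 6 of 12 in control cells. It was lost without the libraries named above. In the comparisons for PBRM1 loss and the interaction 0 S100 genes passed in these fits. All genes passing ranged from 613 to 3059 for TGFβ1 in PBRM1 KO cells, 408 to 2400 in control cells, 3 to 61 for PBRM1 KO with TGFβ1, 8 to 75 without it, and 0 for the interaction.

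For TGFβ1 in PBRM1 KO cells (1593 genes) no filter gave 2413, the replicate block 2780 and leaving out both replicate 3 TGFβ1 libraries 3984; in control cells (1234) these gave 2115, 2397 and 3414. For PBRM1 KO with TGFβ1 (38) no filter gave 259, at least 10 CPM 21, DESeq2 89, only the 6 libraries compared 4, the block 158 and no replicate 3 TGFβ1 libraries 76; without TGFβ1 (39) they gave 278, 17, 106, 135, 144 and 201. For the interaction no filter gave 18 genes. The replicate block gave S100a16 an edgeR adjusted p of 0.0381 with TGFβ1 in control cells and 0.00633 in PBRM1 KO cells. It changed no other S100 call. Without the filter S100a16 passed too (edgeR adjusted p = 0.00110 in PBRM1 KO and 0.0397 in control cells). The cause was not tested.

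Differences near 0 changed sign. With single libraries left out, S100a1 ran from -0.12 to 0.16 for TGFβ1 in PBRM1 KO cells, -0.093 to 0.14 in control cells and -0.13 to 0.15 for the interaction, and S100a13 from -0.022 to 0.28 for TGFβ1 in control cells. S100a6 ran from -0.17 to 0.15 for PBRM1 KO with TGFβ1, -0.0099 to 0.16 without it and -0.22 to 0.10 for the interaction, and S100a16 from -0.74 to 0.053, -0.21 to 0.29 and -0.71 to 0.076. For the interaction S100a4 ran from -0.093 to 0.23, S100a10 from -0.012 to 0.038 and S100a11 from -0.090 to 0.026. Other changes of sign were S100a1 with limma-voom for TGFβ1 in PBRM1 KO cells (-0.0011), S100a16 with the block for PBRM1 KO without TGFβ1 (0.0031), S100a6 for PBRM1 KO with TGFβ1 with limma-voom (-0.0023), the block (-0.00047) and no replicate 3 TGFβ1 libraries (-0.024), and, for the interaction, S100a1 by library size only (0.0038) and without those libraries (0.037), S100a4 without them (-0.0079), and S100a10 with no filter (-0.0011) and without them (-0.016). At least 10 CPM gave no value for S100a16, and only the libraries compared gave none for the interaction.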

Other observations

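Of 23 genes for other EF-hand proteins 22 could be tested. With TGFβ1, 3 rose and 1 fell in PBRM1 KO cells, where 11.4% of all tested genes passed, and 2 rose and 1 fell in control cells, where 8.81% passed. Sparc, a secreted collagen-binding EF-hand protein, read 723, 624 and 443 CPM in PBRM1 KO cells with TGFβ1 against 231, 244 and 211 CPM without it, and 480, 502 and 291 CPM in control cells with TGFβ1 against 251, 183 and 198 CPM without it. Sparc rose by 1.37 ± 0.20 in PBRM1 KO cells (edgeR adjusted p = 0.000987) and by 1.01 ± 0.20 in control cells (edgeR adjusted p = 0.00793). Rcn1, a calcium-binding protein of the endoplasmic reticulum, rose by 0.59 ± 0.12 and 0.48 ± 0.12 in PBRM1 KO and control cells (edgeR adjusted p = 0.00650 and 0.0245). Actn1, the actin crosslinker α-actinin, rose by 0.46 ± 0.10 in PBRM1 KO cells (edgeR adjusted p = 0.0126). Efhd2, an actin-binding EF-hand protein, fell by 0.46 in PBRM1 KO cells and by 0.39 in control cells on the log2 scale (edgeR adjusted p = 0.00721 and 0.0211). PBRM1 loss moved 0 of the 22 with or without TGFβ1.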
